A study of Mus musculus with 6 samples.

Results

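The genes of 3 calcium-permeable channels, Cacna1c, Cacna1d and Trpc6, gave circular RNAs (circRNAs, or circles) in white adipogenesis of the mouse, and these circles are described here. The members were found in the table of back-splice reads by circBase name, the name a public circRNA database gives them. They are mmu_circ_0001511 of Cacna1c, mmu_circ_0005172 of Cacna1d and mmu_circ_0001743 of Trpc6, with every circle on the same strand that overlaps the span of any of them. This gave 8 circles of 3662 in all, the 3 chosen ones and 5 overlapping ones, and all 5 overlapping circles belong to Cacna1c. The 3 chosen circles were picked because their reads differed among these same libraries, so their levels are a description and carry no test. The 5 overlapping circles were picked by position alone.

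The cells were stromal vascular fraction (SVF) cells, the mixed cells left when adipocytes are removed from a fat pad, from the inguinal white fat of C57BL/6 mice that were 6 weeks old. They are labelled as white adipose tissue (WAT) preadipocytes. D0 cells were proliferating and not yet induced. D4 cells had been in induction medium with insulin, dexamethasone and 3-isobutyl-methylxanthine, and D8 cells had then been in insulin and T3 for the rest of the course. All cells were grown in serum, and each stage has 2 replicates, said in the methods to be biological, with no statement of how many mice went into each. The RNA was depleted of rRNA and linear RNA, so the level of the channel mRNAs was not measured here.

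A circle forms when a splice donor joins an acceptor that lies before it, and a read across this back-splice joint is what was counted. Cacna1c and Cacna1d encode the pore-forming subunits of the L-type channels CaV1.2 and CaV1.3, which open when the membrane depolarises and let calcium in. Trpc6 encodes a cation channel of the TRPC family that opens in response to diacylglycerol, the lipid that phospholipase C makes, and also passes calcium. Calcium entry is known to influence how preadipocytes respond to adipogenic hormones, and L-type channels and TRPC6 are best known from heart, smooth muscle and neurons.

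Gene models and sequence are those of mouse build mm9 (NCBIM37) with the GENCODE annotation that goes with Ensembl release 65, and positions are counted from base 1. Cacna1c (ENSMUSG00000051331.7) lies at chr6:118542314-119146249 on the minus strand, Cacna1d (ENSMUSG00000015968.9) at chr14:30853135-31304342 on the minus strand, and Trpc6 (ENSMUSG00000031997.7) at chr9:8544432-8680565 on the plus strand. Both ends of each chosen circle sit at annotated exon ends and every exon between them is coding. The Cacna1c circle spans chr6:119002619-119007533 and holds exons 2 and 3 of 47, or 428 spliced bases. The Cacna1d circle spans chr14:31159984-31164135 and also holds exons 2 and 3, of 49, or 416 spliced bases. The Trpc6 circle spans chr9:8634047-8658377 and runs from exon 4 to exon 10 of 13, 7 exons with 1356 spliced bases. In a shorter annotated transcript the same ends enclose 6 exons and 1122 bases. The reads count the joint alone, so which inner exons a circle holds was not measured.

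The back-splice joints of the 3 chosen circles are shown because each is the sequence by which its circle is counted, with 20 bases of the donor exon in lower case and 20 bases of the acceptor exon in capitals, 5′ to 3′ on the strand of the gene.
Cacna1c mmu_circ_0001511: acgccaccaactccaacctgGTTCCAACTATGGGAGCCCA
Cacna1d mmu_circ_0005172: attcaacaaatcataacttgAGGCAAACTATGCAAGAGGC
Trpc6 mmu_circ_0001743: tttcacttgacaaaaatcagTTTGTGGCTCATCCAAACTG

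Cacna1c and Cacna1d are paralogs, and their circles are built from the corresponding pair of exons. Exon 3 has 106 bases in both genes and aligned without a gap, with 81 identical bases, or 76.4%. Exon 2 has 322 bases in Cacna1c and 310 in Cacna1d, with 66.4% of the 295 aligned bases identical. Over the whole circles 69.1% of the 401 aligned bases were identical, and the 42 bases in gaps were not counted. Both copies of exon 3 are printed because they show how far the paralogous circles differ, with the 25 differing bases in capitals.
Cacna1c exon 3, chr6:119002619-119002724, minus strand: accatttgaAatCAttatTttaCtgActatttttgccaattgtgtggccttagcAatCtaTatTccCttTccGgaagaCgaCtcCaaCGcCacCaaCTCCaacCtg
Cacna1d exon 3, chr14:31159984-31160089, minus strand: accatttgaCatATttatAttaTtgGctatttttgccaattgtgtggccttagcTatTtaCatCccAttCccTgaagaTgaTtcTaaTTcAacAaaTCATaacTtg
In the annotated reading frame 18 of the 25 differences fall at codon position 3, 6 at position 1 and 1 at position 2. The 20 bases next to the donor, which the joints above repeat, hold 9 of them.

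A circle of exons 2 and 3 is a frequent form in this table. Of 3338 circles with both ends on a single annotated transcript, 34.4% began at exon 2, 24.7% had 2 exons, and 269 or 8.06% held exactly exons 2 and 3. The Cacna1c circle lies between introns of 138577 and 272276 bases, at percentiles 99.0 and 99.97 of all upstream and downstream introns, whose medians were 10496 and 8209 bases. Both flanking introns were over 50 kb in 71 circles, or 2.13%. Cacna1d has a short upstream intron of 1975 bases and a downstream one of 149934 bases, at percentiles 13.7 and 99.5. Trpc6 has 7271 and 19546 bases, at percentiles 39.0 and 76.5. The circles of the paralogs thus share their place in the gene and a very long downstream intron, but not the length of the upstream one. The Trpc6 circle shares neither.

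Levels are given as reads or as circCPM, the back-splice reads of a circle per 1000000 back-splice reads of its library. The 6 libraries held 30110 to 50672 such reads, so that 1 read equals 19.7 to 33.2 circCPM. No value in the table is exactly 1, so a circle listed at 0 in a library may have had a single read, and no fold is given against a stage where both libraries are listed at 0. In bulk RNA, fewer cells that make a circle and less of the circle per cell cannot be told apart.

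mmu_circ_0001511 of Cacna1c was the most abundant member, with 845 reads in all and rank 21 of the 3662 circles by mean circCPM. It had 206 and 267 reads on D0, then 114 and 83 by D4 and 84 and 91 by D8. Both D0 libraries stood above all 4 later ones, as in 230 or 16.3% of all circles tested, although the later libraries were deeper. Its level was 7553 ± 1006 circCPM on D0, then 2320 ± 463 by D4 and 1824 ± 39.3 by D8 (mean ± SD, n = 2 for each stage). The D0 mean was thus 3.26 times the D4 mean and 4.14 times the D8 mean. In the order of circles by stage mean it stood at place 4 on D0, place 55 on D4 and place 72 on D8. The log2 fold change in the edgeR fit over all circles was -1.61 (SE 0.25) for D4 against D0 and -1.95 (SE 0.25) for D8 against D0. Both D8 libraries lay below both D4 ones, as in 23.7% of all circles tested, but the difference between these stages was small, with a log2 fold change of -0.34 (SE 0.25), which was -0.069 without replicate 1 of D4 and -0.55 without replicate 2 of D4.

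mmu_circ_0005172 of Cacna1d, with 94 reads in all, was lowest where the Cacna1c circle was highest. It was listed at 0 in both D0 libraries, had 22 and 47 reads on D4, and 13 and 12 on D8. The D4 level was 820 ± 437 circCPM and the D8 level 262 ± 35.1 circCPM (mean ± SD, n = 2). Both D8 libraries lay below both D4 ones, the order that 23.7% of all circles tested had. Replicate 2 of D4 had more than 2 times the circCPM of replicate 1, 1128 against 511, so the D4 level is known only roughly. For D8 against D4 the log2 fold change was -1.63 (SE 0.64). It was -0.97 without replicate 2 of D4 and -2.04 without replicate 1 of D4. Among all 3662 circles, 120 or 3.28% were listed at 0 in both D0 libraries and above 0 in all 4 later ones, and this circle is among them by its choice.

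mmu_circ_0001743 of Trpc6, with 91 reads in all, was highest on D0 and lowest on D4. The 2 D0 libraries had 33 and 35 reads and lay close together, at 1096 and 1083 circCPM. On D4 it had 3 reads in replicate 1 and was listed at 0 in replicate 2, and on D8 it had 12 and 8 reads. The stage means were 1090 ± 9.0, 34.8 ± 49.3 and 211 ± 75.4 circCPM (mean ± SD, n = 2). No stage overlapped another. Of all circles tested, 27.3% had both D4 libraries below both D0 ones, 27.1% had both D8 below both D0, and 26.9% had both D8 above both D4. With the libraries of a stage pooled and the listed 0 taken as 0, D4 was at 0.0325 of the D0 level (95% interval 0.00654 to 0.0991). The interval is for counting error only, because pooling leaves out the spread between replicates. Without molecular identifiers a read is not an independent molecule, so it may be too narrow even for that. The circle was chosen for differing, so the interval is a description and no test. The D8 mean lay between the other stages, with D0 at 5.16 times D8 and a log2 fold change of -2.26 (SE 0.72) for D8 against D0.

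**Figure D1:**
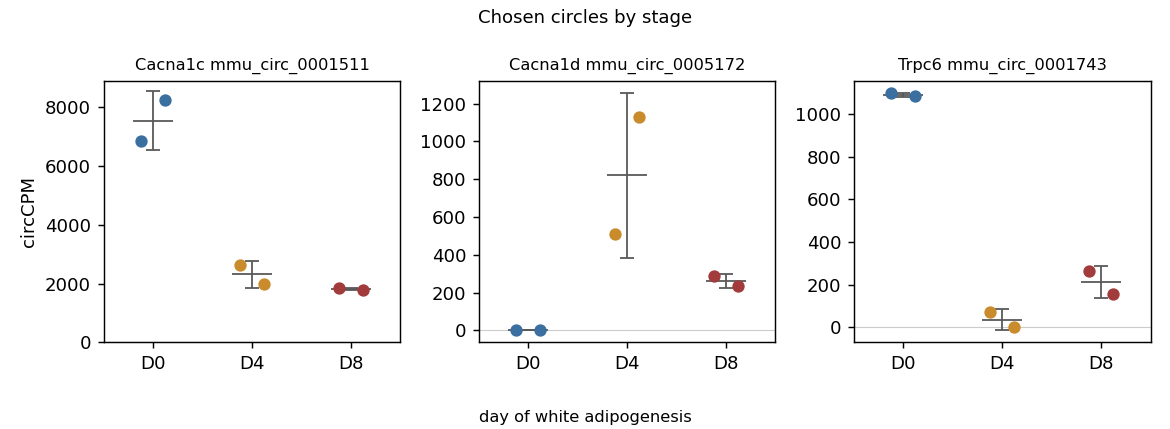
Level of the 3 chosen circles, in circCPM, by day of white adipogenesis; points are libraries, the horizontal mark is the stage mean and the bars are 1 SD, with a vertical axis of its own in each panel. The Cacna1c and Trpc6 circles are highest in both D0 libraries, at 7553 and 1090 circCPM on average, and the Cacna1d circle is listed at 0 there and highest on D4.

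The circles of the paralogous exon pair differed in the place of D0, the highest stage for Cacna1c and listed at 0 for Cacna1d, while both were lower on D8 than on D4. The Cacna1c circle was the higher at every stage, at 2320 against 820 circCPM on D4 and 1824 against 262 circCPM on D8. A level per back-splice joint does not depend on the length of the circle. Trpc6 shared with Cacna1c the high D0 level, but its D4 libraries lay below its D8 libraries, where the D4 libraries of Cacna1c lay above. Both contrasts against D0 use the same D0 libraries, so they are not separate evidence.

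Cacna1c gave 8 circles in all, and 6 of them overlap exons 2 and 3. These 6 held 1306 of the 1383 Cacna1c reads, and mmu_circ_0001511 alone held 61.1% of the 1383. No circle on the opposite strand overlapped a chosen span, and no other circle overlapped those of Cacna1d or Trpc6. The structure of the Cacna1c group is that of a shared acceptor. Of the 6 circles, 5 begin at the acceptor of exon 2, and these 5 held 1277 reads or 97.8% of the group. They differ in the donor. In mmu_circ_0001511 it is the annotated end of exon 3, and in the other 4 it lies inside intron 3 at positions where the annotation has no exon, each followed by the bases GT of a splice donor. These donors lie 3562 bases past exon 3 in mmu_circ_0012997, 7490 in mmu_circ_0012996, 47563 in mmu_circ_0012995 and 50024 in mmu_circ_0012993. Together the 4 circles held 432 reads, or 33.8% of the reads that begin at exon 2.

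The joints of the overlapping circles are printed because they show which side sets each circle apart from mmu_circ_0001511, the donor side in the first 4 and the acceptor side in the last. Each has 20 bases on both sides, donor side in lower case and acceptor side in capitals, on the minus strand.
mmu_circ_0012997, chr6:118999057-119007533: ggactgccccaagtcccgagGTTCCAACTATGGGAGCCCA
mmu_circ_0012996, chr6:118995129-119007533: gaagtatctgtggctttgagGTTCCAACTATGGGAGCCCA
mmu_circ_0012995, chr6:118955056-119007533: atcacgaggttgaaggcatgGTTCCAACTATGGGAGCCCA
mmu_circ_0012993, chr6:118952595-119007533: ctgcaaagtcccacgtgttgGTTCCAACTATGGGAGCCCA
mmu_circ_0012998, chr6:119002619-119019207: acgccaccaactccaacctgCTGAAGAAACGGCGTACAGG
The first 4 carry the same capitals as mmu_circ_0001511, the start of exon 2. The last, mmu_circ_0012998, has the donor of exon 3 and an acceptor inside intron 1, 11674 bases before exon 2, with the bases AG of a splice acceptor before it.

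Intron 3 also holds a small circle that lies outside the chosen span and begins and ends at these unannotated sites. mmu_circ_0012992, at chr6:118952595-118955099, shares its donor with mmu_circ_0012993, and its acceptor lies shortly before the donor of mmu_circ_0012995. Acceptor and donor together frame a stretch of 44 bases at chr6:118955056-118955099 on the minus strand that the annotation does not list as an exon. It is printed with the AG before it and the GT after it in capitals, since 2 separate circles mark its ends.
Framed stretch in intron 3: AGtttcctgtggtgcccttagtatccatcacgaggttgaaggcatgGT
Whether this stretch is spliced as an exon in linear RNA was not measured.

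**Figure D2:**
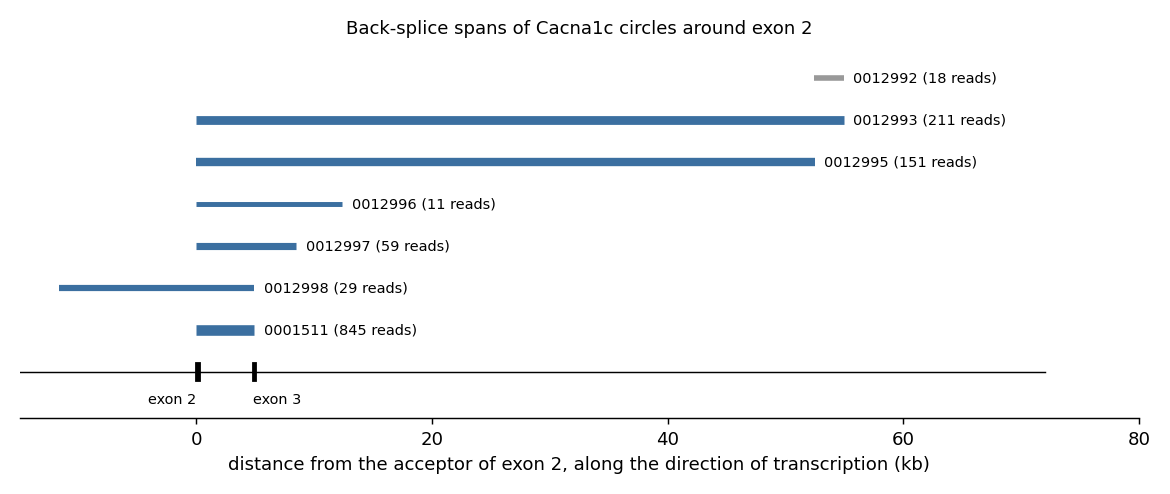
Spans of 7 Cacna1c circles as distance in kb from the acceptor of exon 2 along the direction of transcription, with exons 2 and 3 as black boxes, and with thicker lines for more reads; blue lines overlap the chosen span and the grey line does not. From the acceptor of exon 2, 5 circles run to 5 different donors, and mmu_circ_0001511 with 845 reads is the shortest of them.

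The overlapping circles were measured in the same libraries but were not used to choose the members, so they were tested. Of the 5, the filter on low counts kept 3, mmu_circ_0012993, mmu_circ_0012995 and mmu_circ_0012997. In edgeR's quasi-likelihood F-test with Benjamini-Hochberg adjustment, 0 of the 3 passed an adjusted p of 0.05 across the 3 stages, where 16 of all 1407 circles tested or 1.14% passed. The same count was 0 of 3 for D4 against D0, with 3.27% of all circles called, for D8 against D0, with 1.49%, and for D8 against D4, with 0.0711%. DESeq2 called 0 of the 3 as well, with 5.54% of all circles called across the stages, 4.83% for D4 against D0, 3.55% for D8 against D0 and 0.426% for D8 against D4. An unadjusted p under 0.05 was reached by 2 of the 3 across the stages, for D4 against D0 and for D8 against D0, and by 0 for D8 against D4. Over all circles the unadjusted shares were 21.0, 19.9, 18.8 and 12.2%.

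mmu_circ_0012993, with the most distant donor, was the second circle of the gene by reads. It had 51 and 47 reads on D0, then 29 and 31 by D4 and 30 and 23 by D8. Both D0 libraries lay above all 4 later ones, the order that 16.3% of all circles tested had. The level was 1574 ± 169 circCPM on D0, then 709 ± 50.1 by D4 and 558 ± 147 by D8 (mean ± SD, n = 2). The log2 fold change was -1.06 (SE 0.38, adjusted p = 0.171) for D4 against D0 and -1.40 (SE 0.39, adjusted p = 0.115) for D8 against D0. With a filter of a mean of 20 or more reads, the adjusted p was 0.0406 for D8 against D0, where 41 of 401 circles were called, and 0.0437 across the stages, where 71 of 401 were. Over all alternatives these ranged up to 0.358 and 0.370.

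mmu_circ_0012995 had 25 and 61 reads on D0, then 8 and 20 by D4 and 10 and 27 by D8. Both D0 libraries again lay above all later ones, but replicate 2 held more reads than replicate 1 at every stage, and the spread within a stage was large. The level was 1359 ± 748 circCPM on D0, then 333 ± 208 by D4 and 377 ± 221 by D8 (mean ± SD, n = 2). The log2 fold change was -1.93 (SE 0.69, adjusted p = 0.161) for D4 against D0 and -1.75 (SE 0.67, adjusted p = 0.213) for D8 against D0. Without replicate 2 of D0 these were -1.22 and -1.02, and with any library left out they reached -2.71 (without replicate 2 of D4) and -2.46 (without replicate 2 of D8). mmu_circ_0012997, with the nearest unannotated donor, had 11 and 15 reads on D0, then 13 and 6 by D4 and 2 and 12 by D8. Its level was 415 ± 70.0, 223 ± 112 and 140 ± 136 circCPM at the 3 stages (mean ± SD, n = 2), and its adjusted p across the stages was 0.580.

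The 2 circles that the filter left out were rare. mmu_circ_0012998 had 3 and 17 reads on D0 and 9 reads in replicate 1 of D4, and was listed at 0 in the other 3 libraries. mmu_circ_0012996 had 3 reads in each D0 library and 5 in replicate 1 of D4, and was likewise listed at 0 in the other 3. Both circles were thus present on D0 and listed at 0 in both D8 libraries, a pattern that 369 of all 3662 circles or 10.1% had. With so few reads on D0, a 0 on D8 does not show that the circle was absent.

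Outside the chosen span, mmu_circ_0012990 at chr6:118726435-118730342 holds exons 4 and 5 of Cacna1c, the exons just past intron 3. On D0 it had 13 and 19 reads, followed by 9 and 10 on D4, and on D8 it was listed at 0 in replicate 1 and had 8 reads in replicate 2. The log2 fold change was -2.53 (SE 1.11, adjusted p = 0.276) for D8 against D0. mmu_circ_0012992 in intron 3 was not tested, with 5 reads and a 0 on D0, a 0 and 6 reads on D4, and 3 and 4 reads on D8. Its D0, D4 and D8 means were 83.0, 72 and 72.5 circCPM.

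**Figure D3:**
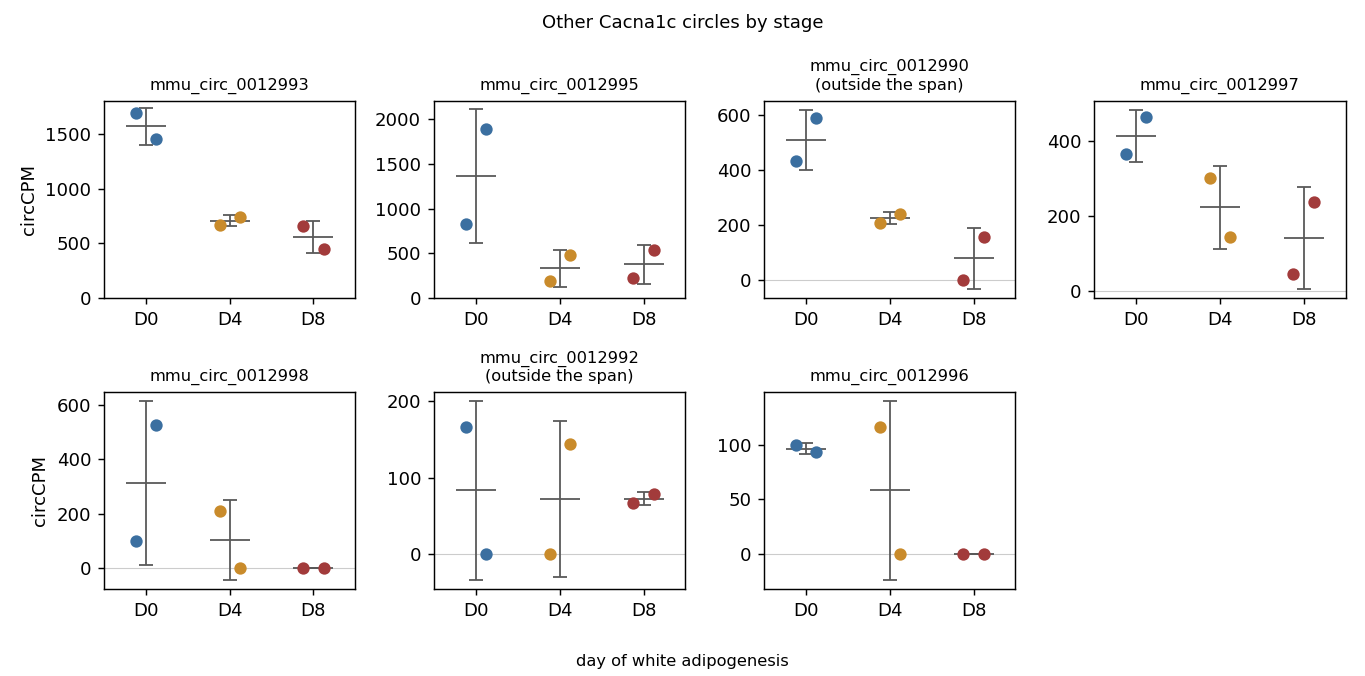
Level of the 7 Cacna1c circles other than mmu_circ_0001511, in circCPM, by day of white adipogenesis, in order of reads; points are libraries, the horizontal mark is the stage mean and the bars are 1 SD, with a vertical axis of its own in each panel. The mean is highest on D0 in all 7, with 1574 circCPM for mmu_circ_0012993, while single libraries of the rarer circles are listed at 0.

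The 5 overlapping circles were also summed, which uses no read of the chosen circle. Their sum was 3089 and 4426 circCPM on D0, then 1486 and 1368 by D4 and 926 and 1224 by D8. Both D0 libraries thus stood above all 4 later ones, an order that 16.3% of single circles tested had. Both D8 libraries stood below both D4 ones, as in 23.7% of single circles tested. The stage means were 3757 ± 946, 1427 ± 83.2 and 1075 ± 211 circCPM (SD, 2 libraries each). The range of the stage means, 2683 circCPM, had an exact permutation p of 0.0667, two-sided by construction, which is the smallest p that the 15 ways to pair 6 libraries can give. This permutation test therefore cannot reach 0.05 here. With the 2 Cacna1c circles outside the span added, the range was 3124 circCPM with the same exact p.

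The share of mmu_circ_0001511 among the reads over exons 2 and 3 was between 59.3 and 68.9% in every library. It was 68.9% (Wilson 95% interval 63.4 to 73.9%) and 65.1% (60.4 to 69.6%) in the D0 libraries. On D4 it was 64.0% (56.8 to 70.7%) and 59.3% (51.0 to 67.1%), and on D8 66.7% (58.1 to 74.3%) and 59.5% (51.6 to 66.9%). The stage means were 67.0 ± 2.67, 61.7 ± 3.37 and 63.1 ± 5.08% (SD, 2 libraries each). Both D4 shares lay below both D0 shares, while the D0 and D8 shares overlapped. The intervals, for counting error within a library, overlapped among all 6. The chosen circle enters this share, so it is given as a description and its difference between stages was not tested.

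**Figure D4:**
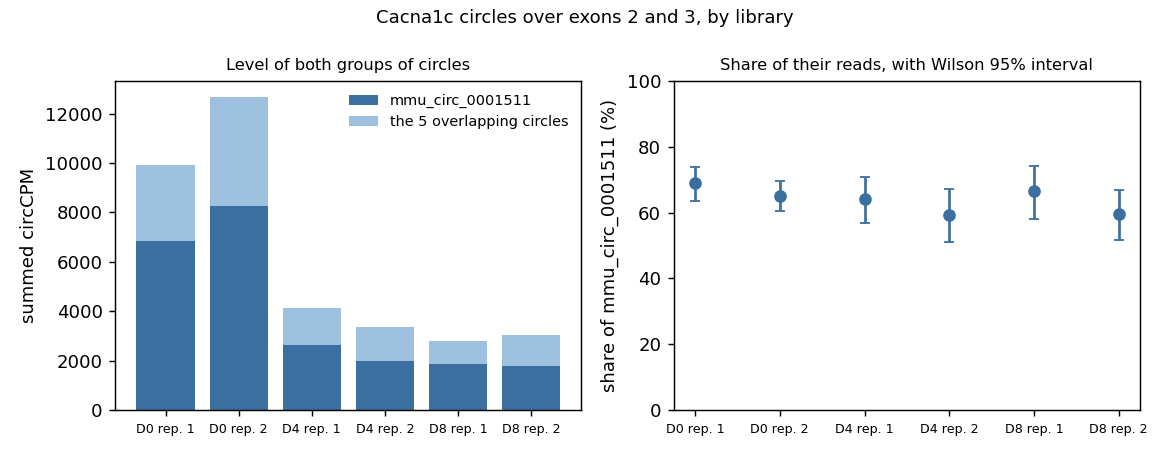
Left, summed circCPM of mmu_circ_0001511 (dark) and of the 5 overlapping circles (light) in each library; right, the percentage of their reads that belong to mmu_circ_0001511, with its Wilson 95% interval for counting error. The overlapping circles sum to 3089 and 4426 circCPM on D0 and to 926 to 1486 circCPM later, and the share lies between 59.3 and 68.9% in every library.

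Cacna1d gave 1 more circle, far from the chosen one. mmu_circ_0005169 at chr14:30858401-30860557 holds exons 46 and 47 of 49, or 286 coding bases near the other end of the gene. It was listed at 0 in both D0 libraries, had 13 and 4 reads on D4, and 4 and 5 on D8, which is 199 ± 146 and 93.4 ± 7.43 circCPM (mean ± SD, n = 2). The filter on low counts left it out, so it has no test. Both circles of the gene thus had the pattern of 0 on D0 and reads in all 4 later libraries that 3.28% of all circles had. Trpc6 had no other circle.

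The calcium list holds 121 genes of voltage-gated channel subunits, TRP channels, calcium stores, export and uptake, and effectors. Without the 3 channel genes, 18 of these genes gave 26 circles, and 6 of the 26 passed the filter on low counts. Of these 6, edgeR's F-test called 0 across the stages, against 1.14% of all circles, and 0 in each pair of stages, against 3.27% for D4 and 1.49% for D8 against D0 and 0.0711% for D8 against D4. An unadjusted p under 0.05 was reached by 1 of the 6 across the stages and for D4 against D0, beside 21.0 and 19.9% of all circles, and DESeq2 called 0 across the stages, beside 5.54%. The 6 differed in direction, with log2 fold changes for D8 against D0 from -1.96 for Mcu to 2.15 for Trpm7.

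The circle with the unadjusted p under 0.05 was mmu_circ_0000170 of Mcu, the pore of the mitochondrial calcium uniporter. It had 9 and 25 reads on D0, then 3 and 3 by D4 and 8 and 4 by D8. The log2 fold change was -2.78 (SE 0.92, adjusted p = 0.142) for D4 against D0. Its D0 libraries differed widely, at 299 and 774 circCPM, and both lay above the later ones, as in 16.3% of all circles tested.

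None of the 5 circles of the list with the highest mean circCPM passed the test, the Mcu circle included. An unnamed circle of Plcg1, phospholipase C gamma, at chr2:160576699-160578310 had 6 and 18 reads on D0, then 16 and 24 by D4 and 7 and 17 by D8. In circCPM its D0 libraries overlapped those of each later stage. Both D8 libraries lay below both D4 ones, as in 23.7% of all circles tested. mmu_circ_0010434 of Camk2d, a calmodulin-dependent kinase, had 12 and 5 reads on D0, then 7 and 8 by D4 and 23 and 14 by D8. mmu_circ_0014798 of Mcoln1, a lysosomal TRP channel, had 7 reads and a 0 on D0, then 3 and 7 by D4 and 13 and 29 by D8. mmu_circ_0001064 of Trpm7, a TRP channel fused to a kinase, had a 0 and 3 reads on D0, then 21 and 7 by D4 and 8 and 12 by D8. Its log2 fold change was 2.81 (SE 1.27, adjusted p = 0.278) for D4 against D0.

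Voltage-gated channel genes other than Cacna1c and Cacna1d gave few circle reads, with 27 for Cacnb2, an auxiliary subunit, and 26 for Cacna1a, the P/Q-type pore. No other TRPC gene gave a circle. Of the calcium stores, Itpr2, an inositol trisphosphate receptor, gave 2 circles, and Stim2, a sensor of store calcium, gave 1. The larger Itpr2 circle by reads, at chr6:146319775-146324704, was listed at 0 in both D0 libraries and had 6 and 8 reads on D4 and 6 and 6 on D8. Of the calcium list, channel genes included, this circle and the 2 Cacna1d circles had this pattern, as did 3.28% of all 3662 circles. The chosen Cacna1d circle has it by its choice.

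**Figure D5:**
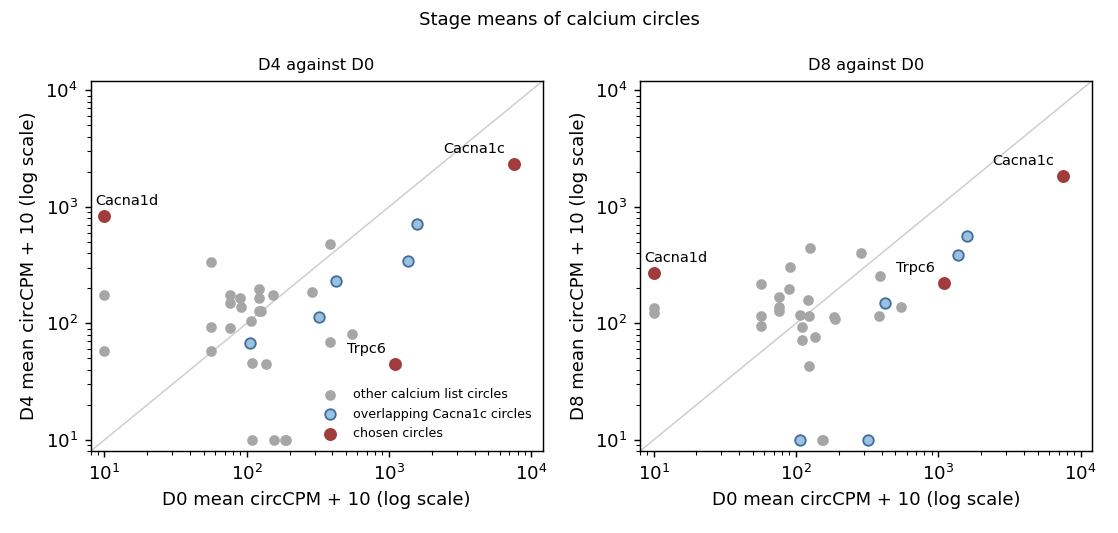
Stage mean of each calcium circle on D4 (left) or D8 (right) against D0, as circCPM + 10 on log axes; red points are the chosen circles, blue ones the 5 overlapping Cacna1c circles and grey ones the 26 other circles of the calcium list, and the line marks equal levels. The overlapping Cacna1c circles lie below the line in both panels, as do Cacna1c and Trpc6, and Cacna1d lies at the left edge, where the D0 mean is 0.

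Marker genes of other cells in the SVF could be read only through their circles. Circles of the adipocyte list came from 7 of 15 genes and summed to 1640 to 2823 circCPM on D0, 3460 to 3841 on D4 and 8032 to 8816 on D8, with Insr (658 reads) and Ghr (222 reads) in front. Of its 4 tested circles 0 passed edgeR's F-test across the stages (1.14% of all circles), and 2 had an unadjusted p under 0.05 (21.0% of all). DESeq2 called 0 across the stages (5.54% of all). For D8 against D0, edgeR called 0 (1.49% of all) and 3 had an unadjusted p under 0.05 (18.8% of all). That unadjusted count was 1 for D4 against D0 and 1 for D8 against D4, beside 19.9 and 12.2% of all. Looked at after the values were seen, Pparg, the master regulator of adipogenesis, was listed at 0 on D0 and had 13 and 18 reads on D4, and 24 and 29 on D8, while circles of Cd36, Lipe and Lpl were listed on D8 alone. Adipoq, Fabp4 and Plin1 gave no circle. Smooth muscle and pericytes are cells in which L-type channels and TRPC6 are well known. Of their 12 marker genes 1 gave a circle, Myocd, at 0 and 92.9 circCPM on D0, 0 in both D4 libraries, and 220 and 118 on D8. The defining genes Myh11, Acta2 and Pdgfrb gave none. Of 9 endothelial genes 0 gave a circle, and of 7 macrophage genes 1 did, Adgre1 with 14 reads, all on D8. Fibroblast progenitor genes gave circles from 2 of 9 genes, Fbn1 (76 reads) and Pdgfra (30 reads), with 598 and 959 circCPM on D0, then 325 and 192 by D4 and 287 and 434 by D8. The part of these cell types in the calcium channel results was not tested.

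The circles whose pattern over the 6 libraries was most like a chosen circle were named by Pearson's r of log2(circCPM + 10), among circles of other genes with a mean of 10 or more reads. The values are a description and the points share their libraries. Nearest to the Cacna1c circle came circles of Slco3a1 (r = 0.991), Foxn2 (0.989), St7 (0.982), Prrc1 (0.975) and Scamp1 (0.974). The Foxn2 circle, mmu_circ_0007088, had 86 and 102 reads on D0, then 59 and 52 by D4 and 59 and 64 by D8. All 5 had their highest circCPM in both D0 libraries.

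Nearest to the Cacna1d circle came an unnamed circle annotated to Vmn1r90 (r = 0.989), an unnamed circle of Bmper (0.986), and circles of Pde4d (0.977), Cped1 (0.975) and Tmem164 (0.974). The Bmper circle was listed at 0 in both D0 libraries and had 49 and 48 reads on D4 and 12 and 26 on D8. Bmper encodes a secreted protein that binds BMPs. The Pde4d circle, mmu_circ_0004450, had 3 and 4 reads on D0, then 29 and 24 by D4 and 17 and 19 by D8. Pde4d encodes a phosphodiesterase that breaks down cAMP.

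Nearest to the Trpc6 circle came circles of Zfp532 (r = 0.989), Farp1 (0.979), Zfp827 (0.972), Eps15l1 (0.956) and Mef2a (0.951). The Zfp532 circle, mmu_circ_0000884, had 28 and 26 reads on D0, then 2 and 0 by D4 and 12 and 12 by D8. That of Mef2a, a transcription factor of muscle and other cells, had 33 and 22 reads on D0, then 9 and 3 by D4 and 11 and 20 by D8. All 5 had their lowest reads on D4, where replicate 2 held fewer reads than replicate 1 in each.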

How the data were processed

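The authors trimmed reads with fastp 0.20.1, aligned them to mm9 with BWA-MEM 0.7.17, called circRNAs in each library with CIRI2 and kept a circle if each replicate of at least 1 stage held 2 reads. The deposited values are raw counts of back-splice reads, without normalization. The submitters' processing notes also name FastQC 0.11.9 and HISAT2 2.2.0. The table holds 3662 circRNAs, and the authors' filter held for all of them. Its starts are counted from base 0 and were moved by 1, after which AG and GT flanked 99.6% of the circles. Gene names came from the annotation of the span, and 161 older symbols were brought to the current ones of the RefSeq gene table.

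The fit was edgeR 4.0.16 in R 4.3.3 (TMM, filterByExpr with a minimum count of 10 and a minimum total of 15, quasi-likelihood F-test of stage over all 6 libraries, Benjamini-Hochberg adjustment at 0.05) on the whole table, of which 1407 circles passed. It has no other covariate. The SE beside an edgeR log2 fold change was worked back from the F statistic, as the absolute log2 fold change over its square root. For the chosen circles this SE is a description and stands for no test. The study used DESeq2 1.10.1, and DESeq2 1.42.0 served as an alternative. Other alternatives were RLE factors, column totals, other filters, a replicate block, a pair of stages alone and each library left out. Exon numbers follow the transcript that places most exons inside a circle. Shares have Wilson intervals and pooled ratios exact ones, for counting error only. The script was tested on simulated D4 against D0 data of 1407 circles, where it recovered 34 of 200 circles changed 4-fold and 152 of 200 changed 16-fold.

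Named circles are the members, other circles of the 3 genes, the called circles and the 5 highest by mean circCPM of the calcium list, the 5 most alike per chosen circle, and the 2 genes with most reads per cell type list. The members and lists were chosen with earlier results of these data known. Python 3.11.15 with pandas 2.3.3, scipy 1.17.1, biopython 1.88 and matplotlib 3.10.9 was used for the rest.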

Additional observations from a re-analysis of the deposited data

How the results depend on the processing

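The counts of overlapping Cacna1c circles past the test stayed at 0 under DESeq2, RLE factors, column totals, no filter, a mean of 5 or more reads, fits of 2 stages alone, and with any library left out (lowest 0, highest 0). With a mean of 20 or more reads, 1 passed across the stages and 1 for D8 against D0, mmu_circ_0012993 in both, where 71 and 41 of all 401 circles were called, and the D8 against D0 log2 fold change of mmu_circ_0001511 was -2.15. Without a filter, 1 of the 26 circles of the calcium list passed edgeR's F-test across the stages. It was mmu_circ_0007552 of Nfatc1 with 9 reads (adjusted p = 0.0490). Over all circles that fit called 396 of 3662, where the main fit called 16 of 1407. DESeq2 called 78 of 1407. With all libraries kept, the fewest were 4 of 1407, with the replicate block. The cause of these differences was not tested.

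With each library left out, the log2 fold changes of mmu_circ_0001511 ranged from -1.86 to -1.36 for D4 against D0 and from -2.04 to -1.79 for D8 against D0, and that of mmu_circ_0001743 for D8 against D0 from -2.64 to -1.89. For D8 against D4, mmu_circ_0005172 ranged from -2.04 to -0.97, the higher value without replicate 2 of D4. Of the overlapping circles, 2 changed sign for D8 against D4, mmu_circ_0012995 (-0.56 to 1.0) without D4 replicate 1 or D8 replicate 2, and mmu_circ_0012997 (-2.26 to 0.077) without D4 replicate 1 or D8 replicate 1. The range of the summed overlapping circles was 2014 to 3351 circCPM, and its exact p over the other settings 0.0667 to 0.133.

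Over all circles tested, the log differences between replicates 1 and 2 were barely correlated between stages (correlations 0.03 to 0.06). Many of these circles have few reads, and counting error lowers such a correlation. It therefore cannot show whether same-numbered replicates share more than a number. With the replicate block, 0 overlapping circles passed and the calls over all circles were 4 across the stages and 17 in place of 46 for D4 against D0. Of the 5 most alike circles, a mean of 20 or more reads kept 1, 3 and 0 for Cacna1c, Cacna1d and Trpc6, since the others had fewer reads, and a pseudocount of 50 circCPM kept 5, 2 and 3. With 2 libraries a stage and few reads, the fit recovered a minority of 4-fold changes in simulation, so a circle that missed the threshold is not shown to be stable.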
